A study of Danio rerio with 12 samples.

Results

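The genes ahr2 and tiparp were followed through 12 single-colour Affymetrix zebrafish arrays. Every probe set whose platform symbol is ahr2 or tiparp was taken, which gave 2 of 15502 probe sets, 1 for ahr2 (NCBI gene 30517) and 1 for tiparp (NCBI gene 563506). They are 2 of 8793 genes with a probe set of their own. Both passed the filter on low values, which kept 11626 probe sets. Each gene thus rests on 1 probe set, and no second one carries its symbol. Whether any of the 4572 probe sets without a symbol measures either gene was not examined. All arrays held RNA from pools of about 30 whole wild-type larvae, exposed between 72 hours post fertilisation (hpf) and collection at 96 hpf. The titles give 4 groups of 3 arrays: 0.1% DMSO, the solvent, the estrogen 17beta-estradiol (E2) at 0.1 µM, the dioxin TCDD at 1 nM, and E2 at 0.1 µM with TCDD at 1 nM (E2+TCDD). Chemicals were dissolved in DMSO, which was at 0.1% in all 4 groups, and the stock fish came from a commercial supplier. The values are MAS5 signal, an intensity in arbitrary units on a linear scale, and in whole larvae fewer expressing cells and less RNA per cell cannot be told apart.

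The aryl hydrocarbon receptor (AHR) is a ligand-activated transcription factor of the bHLH-PAS family that waits in the cytosol with HSP90 and co-chaperones. On binding dioxin it enters the nucleus, pairs with an ARNT protein and switches on genes such as cyp1a. In zebrafish ahr2 encodes the receptor that carries most of the larval response to TCDD. The gene tiparp encodes a mono-ADP-ribosyltransferase that is itself an AHR target and, as shown in mammals, modifies the receptor and dampens its activity, which makes it a feedback gene.

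The AHR target cyp1a contradicted 4 of the 8 titles of the arrays whose description ends in the letter B, and none of the 4 ending in C. Its signal was above 5000 in 6 arrays, between 20170.0 and 23173.2, and below 5000 in the other 6, between 263.9 and 414.7. Above it were the arrays titled TCDD 1, E2 2, E2 3 and E2+TCDD 1 to 3. Below it were those titled DMSO 1 to 3, E2 1, TCDD 2 and TCDD 3. The estrogen target cyp19a1b, the brain aromatase gene, also went against titles in letter B. It was 287.0 in the array titled DMSO 3 and 256.9 in that titled TCDD 3, but 45.7 in E2 2 and 36.1 in E2+TCDD 2. Groups are therefore written as titled, and in the comparisons by title no array was moved to another group. A second grouping, by description number, is given below. It uses labels, but it places some letter B arrays under other exposures and was chosen with these marker values known. The series speaks of 2 batches, and here the letter stands for them, which is an inference. The correlation of log2 signal between arrays had a median of 0.985 within a letter and 0.969 between letters. Of 18 genes marking liver, pancreas, muscle, heart, retina, blood, skin, cartilage, neurons, gut and neutrophils that passed the filter, none was at 0 in any array. Their lowest signals were 5.4 for the mpx probe set used, 1 of 4 annotated to mpx, and 232.9 or more for the other 17. That probe set shares its cluster number with the cyp1a probe set and had r = 0.97 with tiparp over the 12 arrays, so the marker counts below that include mpx carry this limit.

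The feedback gene tiparp took 2 separate levels across the 12 arrays. Its signal was 502.6, 484.7 and 462.3 in the arrays titled DMSO 1, 2 and 3, and 1246.4, 1101.4 and 1054.5 in those titled E2+TCDD 1, 2 and 3. These groups did not overlap, though the share of all probe sets without overlap between them is not given here. It was 453.9 in the array titled E2 1 but 958.2 and 1201.8 in E2 2 and E2 3, and 1025.3 in the array titled TCDD 1 but 465.7 and 481.9 in TCDD 2 and TCDD 3. The E2 and TCDD titles therefore each held both levels. By title the mean was 483.2 ± 20.2 for DMSO, 657.6 ± 318.5 for TCDD, 871.3 ± 381.4 for E2 and 1134.1 ± 100.0 for E2+TCDD (SD, n = 3 each). Neighbours in that order differed by less than the larger SD of the pair.

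The receptor gene ahr2 was less sharply divided. Its signal was 602.3, 690.8 and 639.8 in the arrays titled DMSO 1, 2 and 3, and 817.7, 1108.6 and 1091.4 in those titled E2+TCDD 1, 2 and 3. Again the groups did not overlap, with the same limit, but the lowest E2+TCDD array was the one with letter C. It was 912.1, 1157.6 and 1015.7 in the arrays titled E2 1, 2 and 3, and 1129.5, 616.6 and 590.3 in those titled TCDD 1, 2 and 3. The mean was 644.3 ± 44.4 for DMSO, 778.8 ± 304.0 for TCDD, 1005.9 ± 163.2 for E2+TCDD and 1028.5 ± 123.3 for E2 (SD, n = 3 each). Here too neighbours in the order differed by less than the larger SD of the pair.

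**Figure D1:**
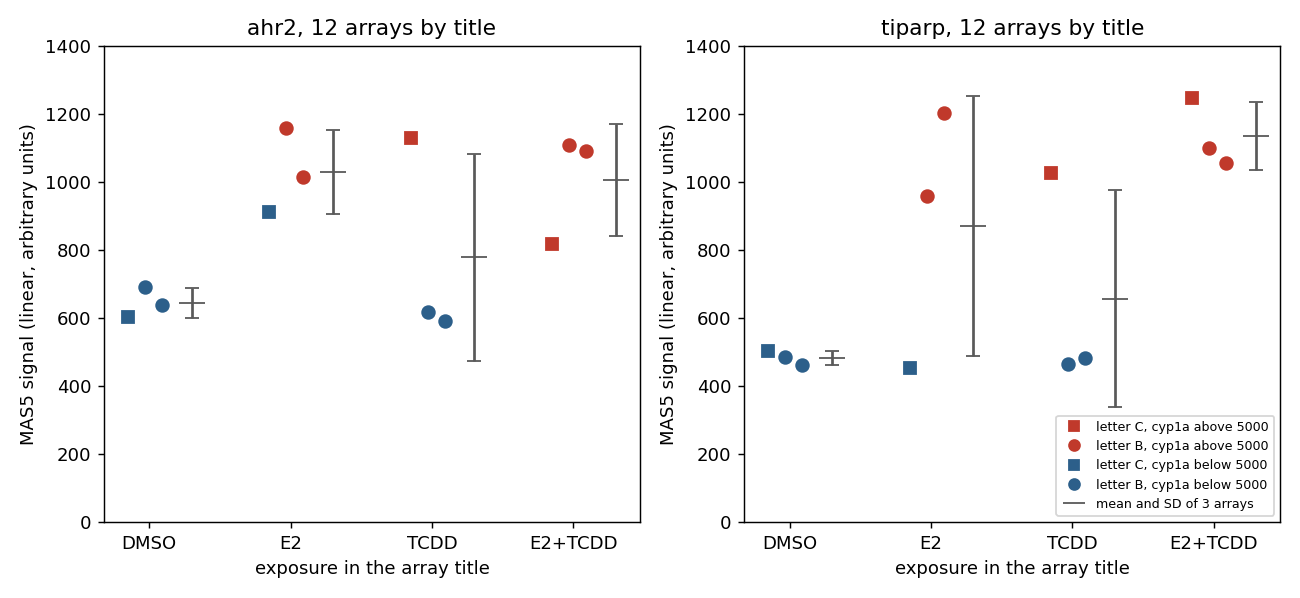
MAS5 signal (vertical axis, linear) of ahr2 (left) and tiparp (right) in the 12 arrays by the exposure in their titles (horizontal axis). Squares are letter C and circles letter B arrays, red marks a cyp1a signal above 5000 and blue one below, and the grey bar is the mean with its SD. For tiparp the red points start at 958.2 and the blue ones end at 502.6, while for ahr2 the blue square at 912.1 (E2 1) lies above the red square at 817.7 (E2+TCDD 1).

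Read against cyp1a, tiparp was divided as cyp1a was in every array, though the share of all probe sets divided likewise is not given here. It ran from 958.2 to 1246.4, with a median of 1078.0, in the 6 arrays with cyp1a above 5000 and from 453.9 to 502.6, with a median of 473.8, in the 6 below. The lowest value on the upper side was 1.91 times the highest on the lower side, and this held in letter C (2.04 times) and in letter B (1.98 times). For ahr2 the 2 sides overlapped. It ran from 817.7 to 1157.6 (median 1100.0) above and from 590.3 to 912.1 (median 628.2) below. In letter B the sides were separate, at 1015.7 to 1157.6 above and 590.3 to 690.8 below, with the same limit. In letter C they were not, because the array titled E2 1 (912.1, cyp1a 414.7) exceeded the array titled E2+TCDD 1 (817.7, cyp1a 23173.2). Since cyp1a was measured on the same arrays, its sides are no treatment groups, and no arrays were grouped by them for a fold or test. Some groups set by labels nevertheless lie wholly on opposite sides. They are DMSO and E2+TCDD by title, the 4 arrays with other numbers, and the arrays with and without TCDD by number. Fits that compare these groups therefore also compare the 2 sides of cyp1a, and they were chosen with marker values known. Their p-values describe the spread between arrays and are no separate support for a response of either gene.

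**Figure D2:**
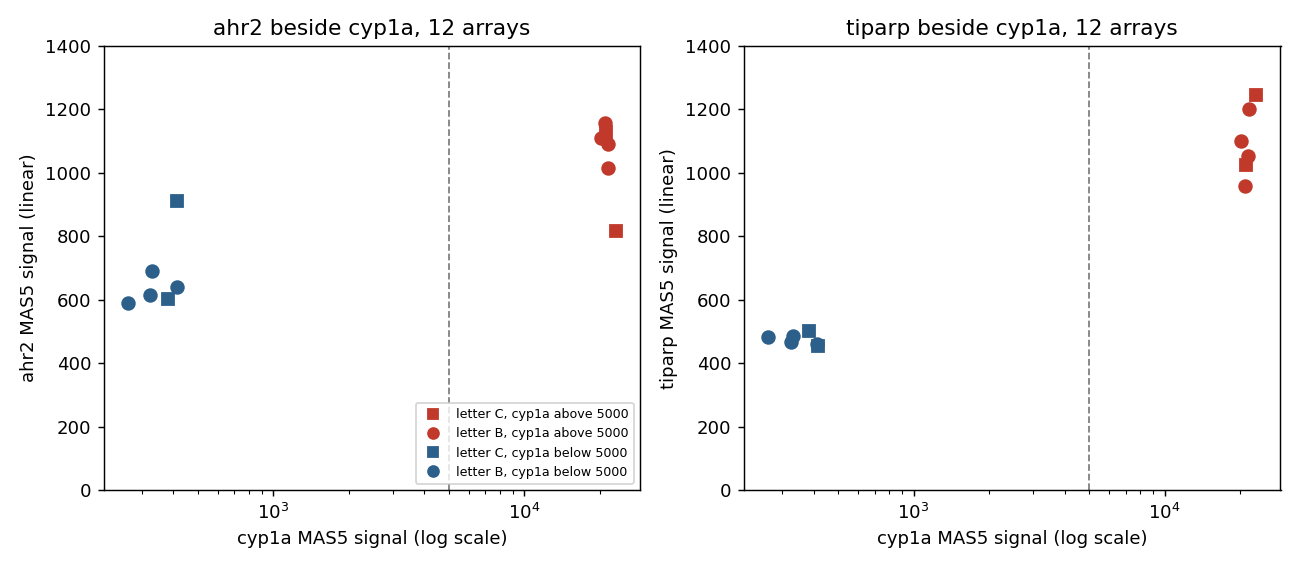
MAS5 signal of ahr2 (left) and tiparp (right, both linear axes) against the cyp1a signal of the same array (log axis), with a dashed line at 5000 and symbols as for letter and cyp1a side. All 6 tiparp points right of the line are higher than the 6 left of it, whereas 5 of the 6 ahr2 points on the right exceed the highest on the left.

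Within the 6 arrays of the upper side, the array titled E2+TCDD 1 had the highest tiparp (1246.4) and the lowest ahr2 (817.7), and the array titled E2 2 had the lowest tiparp (958.2) and the highest ahr2 (1157.6). Correlations of log2 values within a side are given as descriptions with no p, because each side holds 2 pairs of arrays with the same description number, which may not be independent. Over the 6 upper arrays ahr2 and tiparp had Pearson r = -0.86 and Spearman rho = -0.94, and r = -0.84 without the 2 arrays farthest from the median of ahr2. There cyp1a had r = -0.88 with ahr2 (rho -0.83, and r -0.93 without 2 arrays) and r = 0.62 with tiparp (rho 0.66, and r 0.89). For these pairs the 2 arrays left out were those farthest from the median of cyp1a. On the lower side r was -0.60 for ahr2 with tiparp, 0.53 for ahr2 with cyp1a and -0.34 for tiparp with cyp1a. Their rho was -0.54, 0.71 and -0.49. Without the 2 farthest arrays, chosen on ahr2 for the first pair and on cyp1a for the others, r was -0.70, -0.30 and -0.01. The lower-side values with cyp1a thus rested on the 2 arrays farthest from its median. Each side held 2 letter C and 4 letter B arrays, too few for a value within a letter.

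The comparison of E2+TCDD with DMSO asked what the joint exposure changed. In the fit to all 12 arrays, on log2(signal + 16) with the letter as a batch term, tiparp was 2.3-fold higher (log2 1.2, SE 0.31, n = 3 each, limma adjusted p = 0.146) and ahr2 1.54-fold higher (log2 0.62, SE 0.20, limma adjusted p = 0.23). Neither passed, where a call needs an adjusted p under 0.05 and 0.0602% of probe sets were called, 0.0172% higher and 0.043% lower. The spread in that fit includes the E2 and TCDD arrays at both levels. A second fit left those arrays out, a choice made because their titles were known to conflict with marker genes. In the fit to only the 6 arrays titled DMSO or E2+TCDD, where 1.57% of probe sets were called, 0.912% higher and 0.662% lower, both rose. The adjusted p of tiparp was 2.22e-05 (log2 1.2, SE 0.08, 95% interval 1.02 to 1.38, limma) and that of ahr2 was 0.00618 (log2 0.62, SE 0.09, 95% interval 0.42 to 0.82, limma). By size tiparp was 22nd and ahr2 140th of 11626. Within letter C, 1 array against 1, the log2 difference was 1.28 for tiparp and 0.43 for ahr2, and within letter B, 2 against 2, it was 1.16 and 0.71. The exact permutation test of 3 arrays against 3 gave p = 0.1 (two-sided) for both genes, the smallest it allows. The call of ahr2 was lost without the array titled DMSO 2 (log2 0.62, limma adjusted p = 0.0521), without the letter term (limma adjusted p = 0.294) and without the variance trend (limma adjusted p = 0.07). In these 6 arrays cyp19a1b differed by 0.54 (SE 0.69, limma adjusted p = 0.789), so the estrogen marker did not follow the titles here. Of 18 larval markers tested 2 were higher and 6 lower in that fit, and their part in the result was not tested. They were fabp10a of liver, cpa5 of pancreas, myl7 of heart, opn1mw2 of retina, matn1 of cartilage, alpi.2 of gut, and lyz and the mpx probe set of neutrophils. The direction of each is not given here.

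By title, the E2 and TCDD arrays gave no call against DMSO in the fit to all 12 arrays. The comparison of TCDD with DMSO in the 12-array fit had log2 0.34 for tiparp (SE 0.31, limma adjusted p = 0.764) and 0.21 for ahr2 (SE 0.20, limma adjusted p = 0.781). It called 0% of probe sets, with 1114 at an unadjusted p under 0.05. Within letter C the array titled TCDD 1 exceeded that titled DMSO 1 by 1.01 for tiparp and 0.89 for ahr2, while within letter B the differences were 0.00 and -0.14. Without the array titled TCDD 1 the fitted differences were -0.13 for tiparp and -0.18 for ahr2. The comparison of E2 with DMSO also called 0%, with 770 at an unadjusted p under 0.05, and gave 0.72 for tiparp (SE 0.31, limma adjusted p = 0.738) and 0.66 for ahr2 (SE 0.20, limma adjusted p = 0.73). Within letter C tiparp was lower in the array titled E2 1 than in that titled DMSO 1 (log2 -0.14), and within letter B it was higher (1.15). For ahr2 both letters gave a higher value with the E2 title, 0.59 and 0.69, yet the letter C array had low cyp1a (414.7) and the letter B arrays high cyp1a (21022.5 and 21650.5). In a fit to only the E2 and DMSO arrays, where 8 of 11626 probe sets were called, ahr2 passed (log2 0.66, limma adjusted p = 0.0366). The 3 comparisons share the DMSO arrays. When the array titled TCDD 1 was left out of the 12, ahr2 passed both for E2 (limma adjusted p = 0.0135) and for E2+TCDD (0.00538), and tiparp passed for E2+TCDD (0.0145). Of 11626 probe sets 2 were then called for E2 and 166 for E2+TCDD. That array is in neither contrast. The ahr2 differences stayed at 0.66 and 0.62, while their SE fell from 0.20 to 0.09. When E2 1 was left out, tiparp passed for E2 (log2 1.28, limma adjusted p = 0.0137) and for E2+TCDD (0.00854).

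The description codes give another grouping that uses labels alone. The letter C arrays carry the numbers 248, 249, 252 and 255, 1 per exposure in the order DMSO, E2, TCDD and E2+TCDD, and 4 letter B arrays carry the same numbers under other titles for 3 of them. Giving each letter B array the exposure of its number's letter C array leaves 8 arrays, 2 per exposure. Under this grouping cyp1a and cyp19a1b follow the exposures, which was known when it was chosen. Arrays with 1 number may come from 1 RNA, so their spread may be technical. Their correlation was 0.968 to 0.976, within the range of 0.956 to 0.978 of all pairs of arrays from different letters.

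Between the 2 arrays of a number tiparp scarcely moved. It was 502.6 and 484.7 for number 248 (DMSO), 453.9 and 462.3 for 249 (E2), 1025.3 and 958.2 for 252 (TCDD), and 1246.4 and 1201.8 for 255 (E2+TCDD), letter C first. The gaps were 0.03 to 0.10 on the log2 scale, against a median gap over all tested probe sets of 0.20 to 0.26. The order of the exposures was E2, DMSO, TCDD, E2+TCDD in both letters. For ahr2 the signals were 602.3 and 690.8 for 248, 912.1 and 639.8 for 249, 1129.5 and 1157.6 for 252, and 817.7 and 1015.7 for 255. The gap for number 249, 0.50 on the log2 scale, exceeded those of 85.2% of tested probe sets in that pair, although cyp19a1b agreed there at 296.5 and 287.0 and cyp1a at 414.7 and 413.4. In both letters the TCDD array had the highest ahr2, but the order of the other 3 exposures differed between letters.

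**Figure D3:**
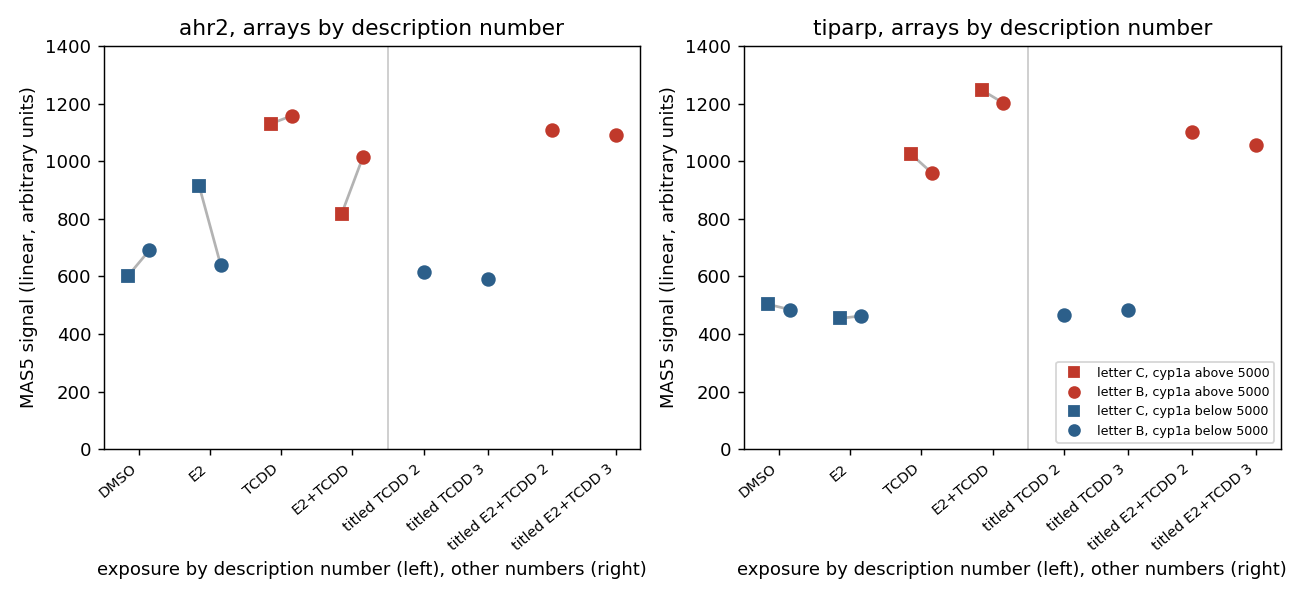
MAS5 signal (vertical axis, linear) of ahr2 (left) and tiparp (right) with arrays placed by the exposure of their description number, letter C (square) and letter B (circle) joined by a line, and the 4 arrays with other numbers right of the grey line under their titles. The tiparp lines are nearly flat, and the steepest ahr2 line joins 912.1 and 639.8 for number 249.

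By number, both genes were called higher with TCDD than with DMSO, where 1.66% of probe sets were called, 1.28% higher and 0.378% lower. Mean tiparp signal was 493.6 ± 12.7 without and 991.8 ± 47.5 with TCDD (SD, n = 2 each). That is 1.98-fold higher (log2 0.98, SE 0.11, 95% interval 0.74 to 1.23, limma adjusted p = 2.10e-04). Mean ahr2 signal was 646.5 ± 62.6 and 1143.5 ± 19.9 (SD, n = 2 each). That is 1.75-fold higher (log2 0.81, SE 0.16, 95% interval 0.48 to 1.15, limma adjusted p = 0.0144). Within letter C the differences were 1.01 and 0.89, and within letter B 0.96 and 0.73, for tiparp and ahr2. The call of ahr2 was lost without the array titled DMSO 1 (log2 0.69, limma adjusted p = 0.365), DMSO 2 (0.93, limma adjusted p = 0.0926), TCDD 1 (0.83, limma adjusted p = 0.105) or E2 2 (0.79, limma adjusted p = 0.0728), the 4 arrays of the contrast itself, each of which leaves 1 array in an arm that is then assumed to vary like the others. That of tiparp held without each of the 8 arrays. Of the 18 larval markers 1 was higher and 2 lower in this comparison (fabp10a, alpi.2 and mpx), and their part in the result was not tested. Over the 4 arrays whose number group holds TCDD against the 4 without, tiparp differed by 1.19 and ahr2 by 0.53. The exact permutation p was 0.0286 for tiparp (two-sided, the smallest this design allows) and 0.0571 for ahr2. All 4 with TCDD had cyp1a above 5000 and all 4 without had it below, which was known when the grouping was chosen. That test and the limma fits by number, here and below, take the 2 arrays of a number as independent, which they may not be. The calls by number therefore describe these arrays, and no conclusion about the exposures is drawn from any of these p-values.

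With E2 and TCDD together by number, tiparp was called higher and ahr2 did not pass. Against DMSO tiparp rose 2.43-fold to 1224.1 ± 31.5 (SD, n = 2; log2 1.28, SE 0.11, limma adjusted p = 1.01e-05), in a comparison that called 1.17% of probe sets, 0.852% higher and 0.318% lower. Of the larval markers 2 were higher and 2 lower there (fabp10a, opn1mw2, alpi.2 and the mpx probe set), and their part in the result was not tested. The value of ahr2 was 916.7 ± 140.0 (SD, n = 2), 1.4-fold higher (log2 0.49, SE 0.16, 95% interval 0.15 to 0.82, limma adjusted p = 0.252). It was 0.29 without the array titled E2 3 and 0.69 without that titled E2+TCDD 1. E2 alone by number, which called 0.0172% of probe sets, differed by -0.10 for tiparp (95% interval -0.35 to 0.14, limma adjusted p = 0.999) and by 0.24 for ahr2 (95% interval -0.10 to 0.57, limma adjusted p = 0.999). For ahr2 the letters C and B gave 0.59 and -0.11, and the fit gave -0.10 when the array titled E2 1 was left out. The comparisons with DMSO share its 2 arrays. Adding E2 to TCDD gave 0.30 for tiparp (95% interval 0.06 to 0.54, limma adjusted p = 0.978, higher in both letters by 0.28 and 0.32) and -0.32 for ahr2 (95% interval -0.66 to 0.01, limma adjusted p = 0.978, lower in both letters by -0.46 and -0.19), where 0.0086% of probe sets were called. These did not pass, and the ahr2 value was -0.52 without the array titled E2 3 and -0.12 without E2+TCDD 1.

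Whether E2 changed the TCDD difference was tested as an interaction, the TCDD difference with E2 minus that without. It was 0.40 for tiparp (SE 0.16, 95% interval 0.06 to 0.75, limma adjusted p = 0.936) and -0.56 for ahr2 (SE 0.22, 95% interval -1.04 to -0.09, limma adjusted p = 0.936). The unadjusted p was 0.0245 and 0.0235, in a fit that called 0% of probe sets with 596 at an unadjusted p under 0.05. Letters C and B gave tiparp values of 0.42 and 0.39. For ahr2 they gave -1.04 and -0.08, and it was -0.22 without the array titled E2 1, -0.36 without E2+TCDD 1 and -0.90 without DMSO 3.

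The 4 arrays with other numbers, 357, 358, 362 and 365, took no part in that grouping and are titled TCDD 2, TCDD 3, E2+TCDD 2 and E2+TCDD 3. In them tiparp was 465.7 and 481.9 under the TCDD titles and 1101.4 and 1054.5 under the E2+TCDD titles. There ahr2 was 616.6 and 590.3, against 1108.6 and 1091.4. Neither gene overlapped, though the share of all probe sets without overlap is not given here. In the same arrays cyp1a was 323.8 and 263.9 against 20170.0 and 21509.5. The estrogen marker cyp19a1b was 52.1 and 256.9 under the TCDD titles and 36.1 and 256.4 under the E2+TCDD titles. Each title thus held a low and a high value of it, so the estrogen marker did not follow the titles here. In a fit to these arrays, which called 0.791% of probe sets and 0.662% higher, the E2+TCDD titles exceeded the TCDD titles by 1.16 for tiparp (SE 0.09, n = 2 each, limma adjusted p = 2.67e-04) and by 0.85 for ahr2 (SE 0.09, limma adjusted p = 0.00203). Of the larval markers 2 were higher, opn1mw2 of retina and the mpx probe set, and their part was not tested. The call of ahr2 was lost without the variance trend (limma adjusted p = 0.0798). Leaving out 1 of these arrays leaves an arm of 1, whose spread is then taken from the other arm, so it is no check of the calls. The array titled TCDD 1, by contrast, had 1025.3 for tiparp and 1129.5 for ahr2, so within letter C the same contrast of titles gave 0.28 for tiparp and -0.46 for ahr2.

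**Figure D4:**
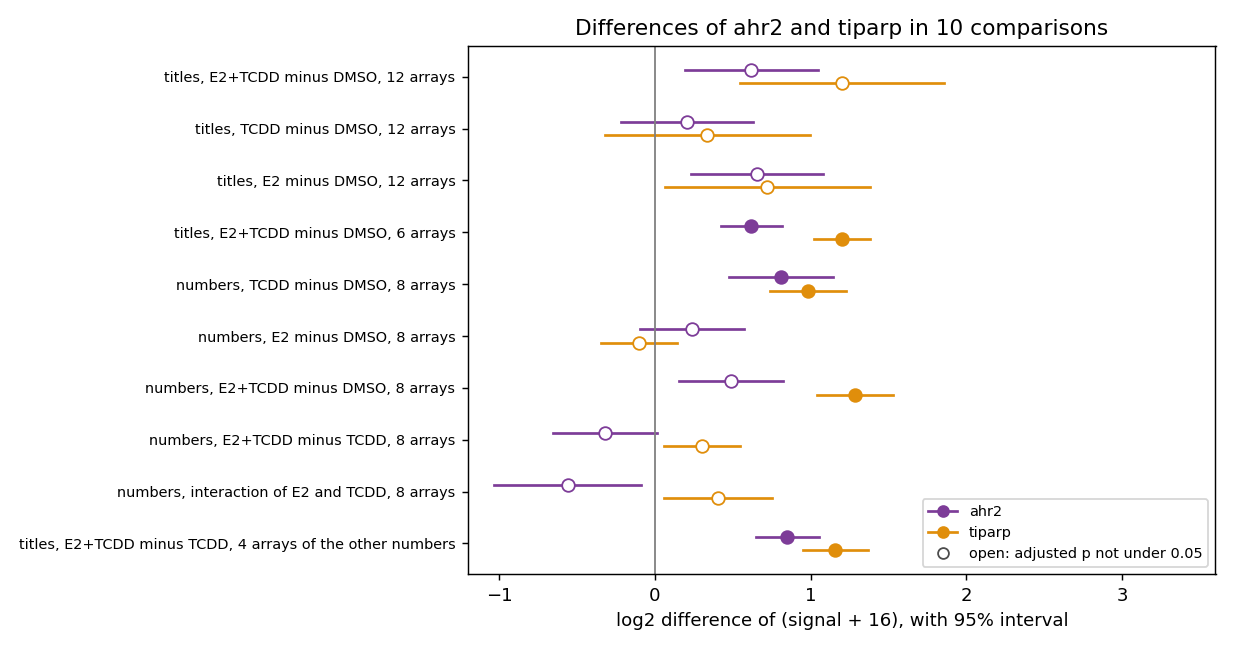
Log2 differences (horizontal axis, points) of ahr2 (purple) and tiparp (orange) with 95% intervals (lines) in the 10 comparisons listed on the vertical axis, filled where the limma adjusted p is under 0.05. For tiparp 4 and for ahr2 3 of the points are filled, all of them above 0, and the tiparp value exceeds that of ahr2 in each comparison with a filled point.

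Besides ahr2, only the HSP90 gene hsp90aa1.2 passed among the tested genes of the receptor machinery in the comparisons below. Of 13 listed receptors, partners and chaperones 8 had a probe set and 7 were tested. By number with TCDD, where 1.66% of all probe sets were called, 2 of the 7 rose, ahr2 and the HSP90 gene hsp90aa1.2 (log2 0.87, SE 0.13, limma adjusted p = 0.00143), and none fell. The same pair rose in the 6 arrays by title (hsp90aa1.2 0.79; 1.57% of all called) and in the 4 with other numbers (0.70; 0.791% of all called). With E2+TCDD against DMSO by number (1.17% of all called) hsp90aa1.2 rose (0.71, limma adjusted p = 0.00856) and ahr2 did not pass (0.49). The partner gene arnt2 did not pass, at -0.18 (SE 0.27, limma adjusted p = 0.877), -0.02 and -0.06, with signals from 46.6 to 111.0, at the 29.7th percentile of mean level. The constitutive chaperone gene hsp90ab1 did not pass either, at 0.03, 0.13 and 0.02, nor did hsp90aa1.1 (0.33, 0.30 and 0.02) or the co-chaperone genes ptges3a (0.43, 0.18 and 0.09) and ptges3b (0.27, 0.02 and -0.14). The median difference of this list was 0.33 by number, 0.18 in the 6 arrays and 0.02 in the 4, against -0.01, -0.00 and -0.01 over all probe sets.

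The paralog ahr1a was under the filter, at the 9.6th percentile of mean level, and was not tested. Its signal was 6.9, 10.9 and 3.9 in the arrays titled DMSO 1, 2 and 3, and 26.3, 31.8 and 26.6 in those titled E2+TCDD 1, 2 and 3. It was 17.6, 47.8 and 37.9 under the E2 titles and 43.4, 22.9 and 8.8 under the TCDD titles. Every array with cyp1a above 5000 thus had a higher ahr1a signal (26.3 to 47.8) than every array below (3.9 to 22.9). The lowest value above was only 1.15 times the highest below, at the dim end of the signal. These values were singled out after they were seen, and the share of probe sets that separate likewise is not given here.

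Of 25 listed genes of the AHR battery 11 had a probe set and 10 were tested, tiparp among them. Some of them were listed with their changes in these data known, so the counts and medians below describe the list and do not test it. By number with TCDD 7 of the 10 rose and 1 fell, where 1.28% of all probe sets rose and 0.378% fell. The list median was 1.07 against -0.01 over all probe sets, and cyp1a (5.83) and cyp1c1 (4.65), both monooxygenase genes, led them. The others that rose, besides tiparp, were cyp3a65 (1.97), the sulfotransferase gene sult6b1 (1.83), the cytochrome b5 gene cyb5a (1.17) and the quinone reductase gene nqo1 (0.42, limma adjusted p = 0.0496). The cartilage and heart regulator gene sox9b fell (-1.57). The glutathione transferase gene gstp1.2 did not pass there (0.36, limma adjusted p = 0.0564) but rose in the 6 arrays (0.49) and the 4 (0.59). In the 6 arrays 8 rose and 1 fell, and in the 4 there were 7 and 1, where nqo1 did not pass (0.33, limma adjusted p = 0.149). All probe sets there had 0.912% higher and 0.662% lower in the 6, and 0.662% and 0.129% in the 4. The list median was 1.17 and 1.46 against -0.00 and -0.01 over all probe sets. With E2+TCDD by number 7 rose and 1 fell, gstp1.2 (0.44) among those that rose, and nqo1 did not pass (0.35, limma adjusted p = 0.145). The rise of tiparp was thus smaller in log2 size than those of cyp1a, cyp1c1, cyp3a65 and sult6b1 in these 3 comparisons.

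Among relatives of tiparp that add or remove ADP-ribose, 8 of 29 listed genes had a probe set and 6 were tested. Of these tiparp rose by number with TCDD and with E2+TCDD, in the 6 arrays and in the 4, and the other 5 passed in none of these. By number parp2, a DNA repair polymerase gene, was at -0.12, parp3 at -0.08, parp12b at 0.06, parp16 at -0.08 and the hydrolase gene adprs at -0.06. The list median was -0.07, 0.07 and 0.00 by number, in the 6 arrays and in the 4. Among listed relatives of ahr2, 20 of 36 genes had a probe set and 11 were tested. They are bHLH-PAS family genes together with period clock genes such as per2, which share only the PAS part. Besides ahr2, the activity-induced gene npas4a rose by number with TCDD (0.72, limma adjusted p = 0.0258) and in the 6 arrays (1.1, limma adjusted p = 0.0153), and did not pass in the 4 (1.65, SE 0.42, limma adjusted p = 0.168). The clock gene per2 rose by number (2.40, limma adjusted p = 3.50e-08) and did not pass in the 6 (0.75, limma adjusted p = 0.268) or the 4 (-0.30, limma adjusted p = 0.511). With E2+TCDD by number both rose, per2 by 1.96 (limma adjusted p = 3.89e-07) and npas4a by 1.00 (limma adjusted p = 0.00299). The hypoxia factor genes epas1a, epas1b and hif1ab passed in none of these 4 comparisons.

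**Figure D5:**
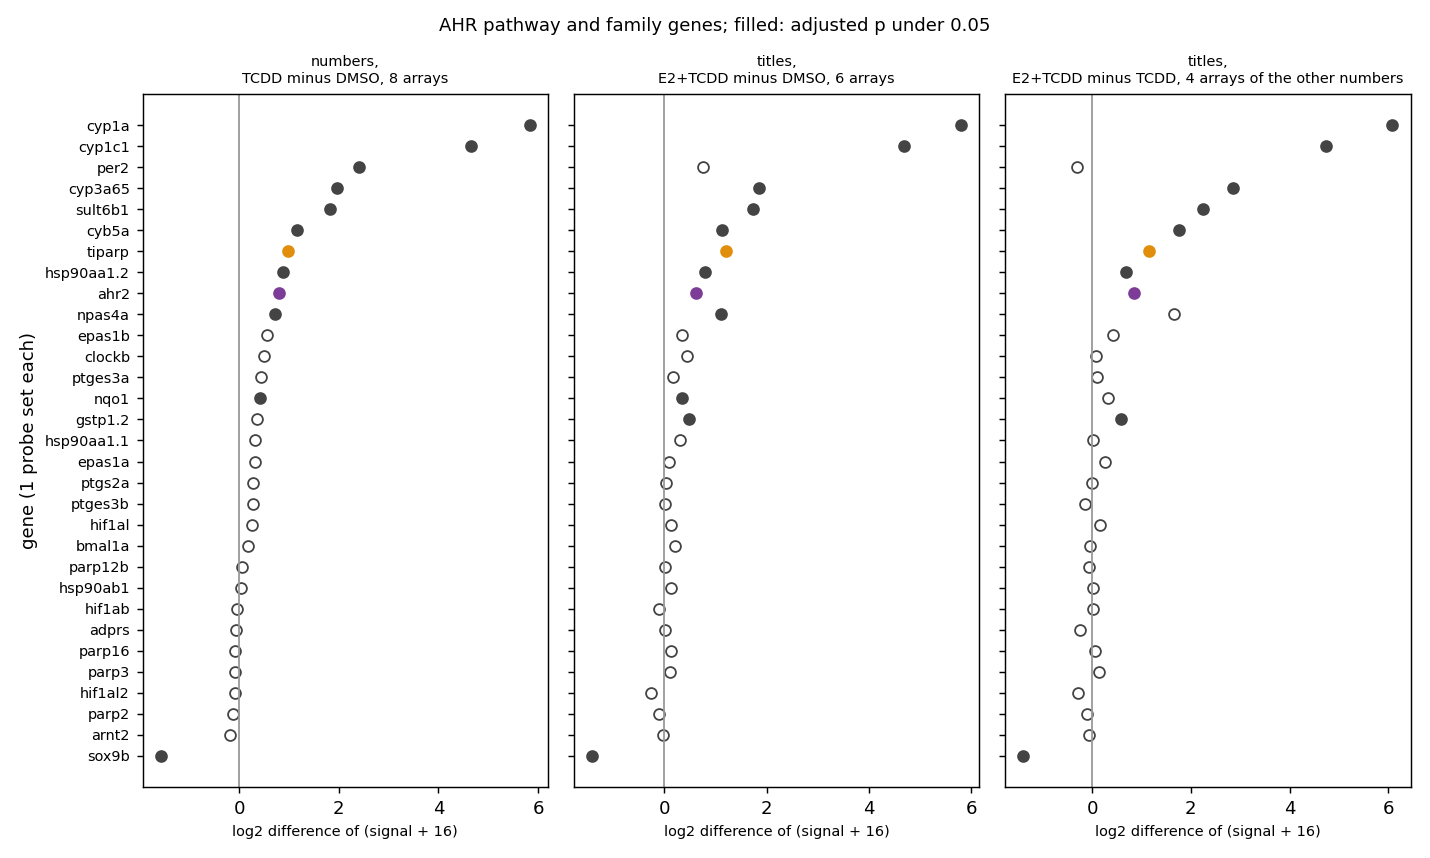
Log2 differences (horizontal axes) of the 31 tested genes of the listed AHR pathway and families (vertical axis, 1 probe set each) in 3 comparisons, filled where the limma adjusted p is under 0.05, with ahr2 in purple and tiparp in orange. The gene cyp1a lies highest at 5.83, 5.79 and 6.08, sox9b lowest, and the parp genes stay near 0.

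Likeness of pattern was taken as Pearson r over the 12 arrays on log2(signal + 16) with each letter's mean subtracted, among 8656 named probe sets, as a description. These arrays fall into 2 levels of cyp1a, so a high r for tiparp mostly restates that division. Most like tiparp were a cyp1c1 probe set (0.99), cyp1a (0.99), another cyp1c1 probe set (0.98), 2 probe sets of the glycogen phosphorylase gene pygl (0.98 each), a probe set annotated to mpx that shares its cluster number with cyp1a (0.97), sult6b1 (0.97) and the chemokine gene ccl27a (0.97). For ahr2 they were pgrmc1, a heme-binding membrane protein gene (0.96), ms4a17a.11 (0.95), the glutathione reductase gene gsr (0.94), the amine oxidase gene aoc2 (0.93), tesk1b (0.90), the calcineurin regulator gene rcan2 (0.90), selenbp1 (0.90) and the keratin gene krt99 (0.90). No probe set was among the 8 of both. In the order for ahr2 cyp1a came 36th (0.87) and tiparp 122nd (0.79), and in that for tiparp ahr2 came 173rd. The signal of pgrmc1 ran from 1638.6 to 3266.7 and that of gsr from 383.7 to 783.0. Without subtracting letter means 6 of the 8 stayed for each gene, and by Spearman rho 3 stayed for ahr2 and 1 for tiparp.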

How the data were processed

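The deposited values are linear intensity, the MAS5 signal of each probe set. The submitters' processing notes name Affymetrix Expression Console, and its version is not given in the sources used here. Trimmed means (2% off each side) differed between arrays by at most 0.00225%, so values were used as deposited, as log2(signal + 16). Array values carry no counts, and the number of arrays limits the precision. No genome build is given in the sources used here, so no positions are printed. Of 15617 probe sets 115 controls were left out, and symbols came from the platform table, brought up to date through RefSeq gene IDs (10711 matched). Of the rest 10795 had 1 symbol, 135 several and 4572 none. Probe sets under the 25th percentile of mean log2 were left out.

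Tests used limma 3.58.1 in R 4.3.3 (lmFit, eBayes with trend), group plus letter, two-sided, with Benjamini-Hochberg adjustment over 11626 probe sets and a threshold of 0.05. Exact permutation tests ran over arrays. The code was tested on simulated data. The members, lists, groupings and tests were chosen with earlier results of these data known. Both members are named with every value, as are receptors and partners, listed genes that passed by number or in the 6 arrays, and the 8 probe sets most like each member. The ahr1a signals, arrays singled out and listed genes named without a call were chosen after their values were seen. Nothing says that replicates came from separate cultures, so p-values measure the spread between arrays, which may be technical. Replicate numbers in titles were checked as a pairing: deviations of same-numbered arrays correlated over 0.1 in 18 of 18 pairs (0.14 to 0.60), replicate 1 always being letter C, and in 0 of 18 after letter means were removed. The replicate 1 arrays are the letter C arrays, so removing letter means forced their correlations low (-0.62 to -0.06). The 0 of 18 therefore cannot show that no pairing exists. Alternatives were other pseudocounts, filters and normalisations, no letter term, the replicate block, no trend, fits restricted to the compared groups, and each array left out in turn.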

Additional observations from a re-analysis of the deposited data

Results flagged for a closer look

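Some contrasts moved in opposite directions in the 2 letters for every array pair, and these differences between letters were not tested. For ahr2 the title contrast of TCDD with DMSO was 0.89 and -0.14 in letters C and B, on the log2 scale, and that of E2+TCDD with TCDD was -0.46 and 0.85. By number, E2 against DMSO was 0.59 and -0.11 for ahr2, and E2+TCDD against E2 was -0.15 and 0.65. For tiparp the title contrast of E2 with DMSO was -0.14 and 1.15 in letters C and B. By number no contrast of tiparp with DMSO or with TCDD changed sign between letters. Letter C has 1 array per group, and so has letter B in the grouping by number, so single arrays set those signs. By title letter B has 2 arrays per group. In the title contrasts cyp1a also differed between letters C and B. It gave 5.73 and -0.32 for TCDD against DMSO, 0.13 and 6.08 for E2+TCDD against TCDD, and 0.12 and 5.79 for E2 against DMSO. The titles that cyp1a contradicted are all in letter B, and their part in these signs was not tested.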

How the results depend on the processing

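Of the values of ahr2 and tiparp recomputed under alternatives, 326 kept their direction and side of the threshold. Another 8 newly passed, 13 no longer passed and 3 changed sign, those 3 with 1 array left out. The 326 include values that passed in neither fit, fits without an array outside the contrast, and fits that leave an arm of 1 array. They are therefore no measure of how firm the calls are. In the 12-array fit, E2+TCDD against DMSO passed in the groups compared alone (ahr2 0.62, tiparp 1.2) and E2 against DMSO for ahr2 (0.66). The 6-array call of ahr2 (0.62) was lost without the variance trend, without the letter term and in the exact test, as was that of tiparp (1.2) in the exact test, which cannot pass. By number, ahr2 with TCDD was lost without the trend or the letter term (0.81), and in the 4 other arrays without the trend (0.85). The exact test of 4 against 4 (0.53) did not pass either and is counted above. It sets TCDD and E2+TCDD against DMSO and E2 with no letter term, and so is another contrast. The 3 against 3 test is limited by its size. In the 4 against 4 test, which could reach 0.0286, the ahr2 groups overlapped (912.1 without and 817.7 with TCDD). For the others the cause was not tested. Leaving out 1 array gave the following ranges, for ahr2 and then tiparp. They were 0.53 to 0.82 and 1.13 to 1.25 for E2+TCDD against DMSO in 12 arrays, -0.18 to 0.38 and -0.13 to 0.53 for TCDD, and 0.56 to 0.78 and 0.41 to 1.28 for E2. In the 6 arrays they were 0.56 to 0.71 and 1.16 to 1.23. By number they were 0.69 to 0.93 and 0.95 to 1.02 for TCDD and -0.10 to 0.58 and -0.15 to -0.06 for E2. They were 0.29 to 0.69 and 1.28 to 1.29 for E2+TCDD, -0.52 to -0.12 and 0.26 to 0.34 for E2+TCDD against TCDD, and -0.90 to -0.22 and 0.36 to 0.45 for the interaction. In the 4 other arrays they were 0.82 to 0.88 and 1.13 to 1.19. The replicate block changed no call of ahr2 (0.62, limma adjusted p = 0.02) or tiparp (1.2) in the 6 arrays, or in the others fitted by title. It moved the count of called probe sets from 183 to 110 in the 6 arrays and from 92 to 214 in the 4. Other counts moved by over 1.5 times: 7 to between 0 and 183 (E2+TCDD, 12 arrays), 0 to 5 (TCDD) or 30 (E2), 183 to as few as 23, 193 to 14 and 136 to 17 by number, 2 to between 0 and 5 (E2), 1 to between 0 and 10 and 0 to 4 (E2 added to TCDD, and interaction), and 92 to between 19 and 214. The lowest of 23, 14 and 17 came without the letter term, and 19 without the trend. Signal near the dim end limits ahr1a and arnt2.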
